A study of Mus musculus with 2 samples.

Results

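The 5 Discs-large genes Dlg1, Dlg2, Dlg3, Dlg4 and Dlg5 were followed through splicing and transcript level in N2A cells, a mouse neuroblastoma line, after knockdown of the splicing repressor PTBP1. One library came from cells transfected with a control shRNA (shControl) and 1 from cells transfected with an shRNA against Ptbp1 (shptbp1), both collected 3 days later and sequenced as strand-specific paired reads of 100 bases from poly(A) mRNA. Splicing was read from SpliceTrap trios, each made of a middle exon or exon part and its neighbours. Of the 175 trios whose middle exon lies in a Dlg gene on its strand, 156 reached the minimum of 20 reads with both shRNAs and were kept, out of 145628 such trios among 228333 in all. The kept trios were 43 in Dlg1, 25 each in Dlg2, Dlg3 and Dlg4, and 38 in Dlg5. With 1 library per condition there was no replicate error and no test. The intervals given cover counting error only, and they compare these libraries and not the conditions.

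Discs-large proteins are scaffolds of the membrane-associated guanylate kinase family. They hold receptors, channels and adhesion molecules in place through PDZ domains, and they end in an SH3 domain and a guanylate kinase-like domain. Dlg4 encodes PSD-95, the main scaffold of the excitatory postsynaptic density, Dlg2 encodes PSD-93, Dlg3 encodes SAP102 and Dlg1 encodes SAP97, while Dlg5 is a more distant relative that acts in cell polarity and adhesion. PTBP1 binds pyrimidine-rich RNA and represses many neuronal exons outside neurons, and exon 18 of Dlg4 is one of its known targets. Transcripts that skip this exon are known to be removed by nonsense-mediated decay.

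The level of Ptbp1 itself, as bases on RefSeq isoforms in parts per 1000000 of the library's isoform bases (ppm), was 438 with shControl and 132 with shptbp1, a log2 ratio of -1.73. By reads on splice junctions its log2 ratio was -1.58. The log2 ratio of Ptbp2, the neuronal paralog, was 0.78 by RefSeq isoforms and 1.27 by junction reads. That of Ptbp3 was -1.14 and -0.54, so by junction reads Ptbp3 was not 1.5-fold lower. The 156 Dlg trios had a median of 273 reads with shControl and 295.5 with shptbp1, against 750 and 656 over all 145628 trios. Reads on distinct splice junctions came to 74382387 and 58295142. Of 14 neuroblastoma and neuronal markers, 11 passed the minimum, and they summed to 1540 and 1628 ppm together with those below it. Single markers moved in both directions within these sums. Tubb3, a neuronal tubulin, was at 400 and 293 ppm, with a junction log2 ratio of -0.08. Dbh, an enzyme of noradrenaline synthesis, was at 38.2 and 154, with a junction log2 ratio of 2.13. Ina, a neuronal intermediate filament, was listed at 0 with shControl and at 67.8 with shptbp1, but had 1202 and 1187 junction reads. Gata3, a transcription factor, had log2 ratios of -1.70 by RefSeq isoforms and 1.01 by junction reads. The part of these shifts in the Dlg results was not tested. The 5 glial markers summed to 5.80 and 3.67, the 3 fibroblast markers to 0.257 and 0.593, and the 1 listed of 2 immune markers to 0 and 0.0126, so that the labelled cell type was matched by its markers. Neuroblastoma markers Nefl and Nefm, both neurofilament subunits, were nearly absent, with 0.862 and 4.66 reads of 100 bases with shControl and 6.60 and 17.2 with shptbp1.

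Exon 18 of Dlg4 is the exon on which the Dlg results turn, and the sequence upstream of it is shown because PTBP1 acts through pyrimidine-rich stretches beside its exons. In the annotated transcript Dlg4-003, which has 20 exons, it spans chr11:69857160-69857269 on the plus strand of mm9, is 110 nt long and lies in the coding sequence. Its sequence, with no part marked, is:
Dlg4 exon 18: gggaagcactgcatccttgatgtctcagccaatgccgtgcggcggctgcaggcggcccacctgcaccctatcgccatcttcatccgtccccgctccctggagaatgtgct
Each of the other 4 Dlg genes also has an exon of 110 nt as the third exon from its 3′ end. The 100 nt upstream of each are given below, with the letters TCTT and CTCTCT in capitals, on the transcribed strand of NCBIM37, which is mm9. They lie at chr11:69857060-69857159 for Dlg4, chr16:31863159-31863258 for Dlg1, chr7:99586375-99586474 for Dlg2 and chrX:98010032-98010131 for Dlg3, all on the plus strand, and at chr14:24956462-24956561 on the minus strand for Dlg5.
Dlg4: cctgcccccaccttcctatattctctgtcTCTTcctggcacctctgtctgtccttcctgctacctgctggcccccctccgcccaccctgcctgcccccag
Dlg1: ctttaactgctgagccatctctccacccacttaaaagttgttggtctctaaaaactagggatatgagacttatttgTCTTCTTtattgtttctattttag
Dlg2: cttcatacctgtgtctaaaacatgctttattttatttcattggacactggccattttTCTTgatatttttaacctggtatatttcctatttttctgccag
Dlg3: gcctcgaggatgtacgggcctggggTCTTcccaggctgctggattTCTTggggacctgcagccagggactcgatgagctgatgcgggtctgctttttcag
Dlg5: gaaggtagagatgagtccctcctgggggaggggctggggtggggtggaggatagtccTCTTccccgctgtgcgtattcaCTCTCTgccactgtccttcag
The Dlg4 stretch held 79% pyrimidines, and 99.7% of 113619 upstream windows of cassette-class and constitutive-class exons held that share or less. The stretches of Dlg2, Dlg1, Dlg3 and Dlg5 held 67%, 61%, 51% and 50%, against a median of 55% over all windows. In the 250 nt upstream, TCTT occurred 5 times in Dlg4 and in Dlg2, 4 times in Dlg3 and 2 times in Dlg1 and in Dlg5, and 84.4% of all windows held it at least once, 7.27% of them 5 times or more. CTCTCT occurred 2 times in Dlg5 and not in the other 4 windows, and 16.3% of all windows held it. The motifs were searched on the transcribed strand only, they can overlap, and a match is a description of the letters. The 110-nt exons of Dlg2, Dlg3, Dlg1 and Dlg5 had 75, 72, 70 and 58 bases identical to that of Dlg4.

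Inclusion of Dlg4 exon 18 rose after the knockdown. Percent spliced in (PSI), SpliceTrap's corrected inclusion ratio as a percent, was 48.7 with shControl and 72.2 with shptbp1, a change of 23.5 points. The trio held 852 reads with shControl and 1089 with shptbp1. With shControl, 114 and 231 reads lay on the upstream and downstream junctions of inclusion and 192 on the junction that skips the exon. With shptbp1, these were 211, 374 and 120, so inclusion reads were more and skipping reads fewer although the library was smaller. PSI from the junction reads alone was 47.3 (95% Wilson interval 42.3 to 52.5) with shControl and 70.9 (66.4 to 75.1) with shptbp1. By the Newcombe method, the difference had a 95% interval of 16.7 to 30.1 points. The exon database lists exon 18 in its constitutive class, in which 0.0626% of 131076 trios rose by 20 points or more with an interval above 0. At the threshold of 5 points used elsewhere, 0.179% did. Most of the class had no room to rise, as 113262 of these trios had a PSI above 99 in both libraries.

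The length of exon 18 leaves a remainder of 2 bases when divided by 3, so its skipping shifts the reading frame. With the exon, the reading frame of Dlg4-003 runs for 724 codons. Without it, the frame meets a stop codon after 625 codons, in exon 19, and that stop ends 80 nt before the last exon junction. The annotation holds 1 Dlg4 transcript that skips exon 18, Dlg4-012, and labels it as a target of nonsense-mediated decay. The transcripts assembled by the authors from each library differed in the same place. With shControl, 2 of the 5 isoforms of the Dlg4 locus skipped exon 18, at read depths of 74.3 and 43.9 per base, beside 2 RefSeq isoforms that include it at 204 and 55.0. With shptbp1, the locus held the same 2 RefSeq isoforms, at 299.7 and 103 per base, and no assembled isoform. The junction that skips exon 18 still had 120 reads there, so the lack of a skipping isoform does not mean that skipping was absent.

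The exon at the same place in the other 4 genes was included in nearly every transcript of both libraries. SpliceTrap gave each a PSI of 99.9 in both libraries. In Dlg1, the most deeply read of them with 2155 and 1571 trio reads, 1 read skipped the exon in each library, against 619 and 851 inclusion reads with shControl and 425 and 569 with shptbp1. The trios of this exon in Dlg2, Dlg3 and Dlg5 held no skipping read. In Dlg5, however, the junction across the exon had 2 reads with shControl and 4 with shptbp1 in other trios, 1.39% and 3.25% of the reads at its acceptor, and the interval of that difference was -2.19 to 6.78 points. The lower end of the Wilson interval of junction PSI was lowest in Dlg3, at 85.1 with shControl and 82.4 with shptbp1, where only 23 and 21 reads and 16 and 20 reads lay on the inclusion junctions. By these trios, the difference between libraries had intervals of -0.999 to 0.586 points in Dlg1, -3.13 to 4.48 in Dlg2, -17.6 to 14.9 in Dlg3 and -3.40 to 2.94 in Dlg5, each of which lies below the interval of Dlg4.

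**Figure D1:**
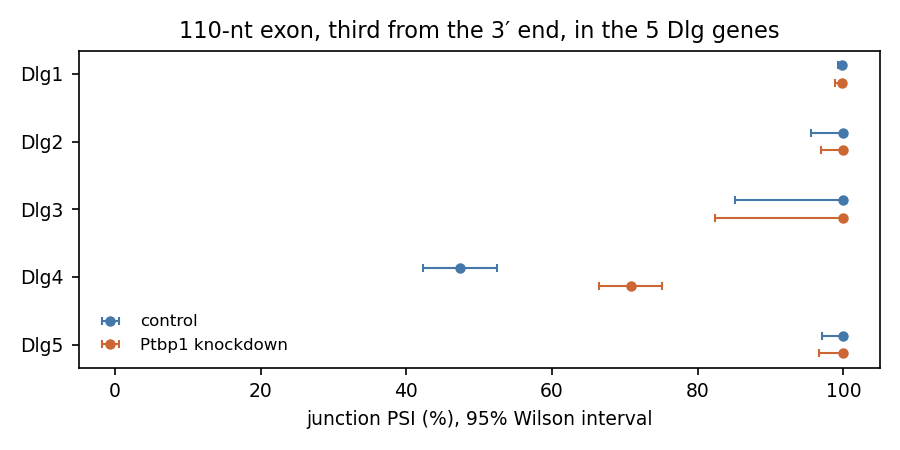
Junction PSI in percent (horizontal axis) of the 110-nt exon that is the third from the 3′ end of each Dlg gene, in the control and the knockdown library, with 95% Wilson intervals as bars. The Dlg4 exon moved from 47.3 to 70.9, and the exons of the other 4 genes sat near 100 in both libraries.

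Over the 156 Dlg trios, PSI rose by 5 points or more in 11 and fell by as much in none, while 2.73% of all 145628 trios rose and 2.66% fell. Of the 11, 3 were in Dlg1, 4 in Dlg3, 2 in Dlg4 and 2 in Dlg5, and they stand for 9 distinct middle exons because 3 trios share 1 Dlg3 exon. Only 2 trios, both in Dlg4, also had a junction interval above 0, as did 0.743% of all trios, and no Dlg trio fell with one below 0, as 0.732% did. They were the trios of exon 18 and of a long form of exon 2. Of 10 Dlg trios in the cassette class, 4 rose and none fell, against 16.4% and 15.0% of all cassette-class trios, and 1 rose with an interval above 0, against 8.31%, with 6.50% falling beyond 0. Of 139 in the constitutive class, 3 rose and none fell, against 1.40% and 1.56%, and 1 rose with an interval above 0, against 0.179%, with 0.333% falling beyond 0. In 121 of the 156 trios PSI was above 99 in both libraries, and 106 had no skipping read in either library. The median change was 0.

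**Figure D2:**
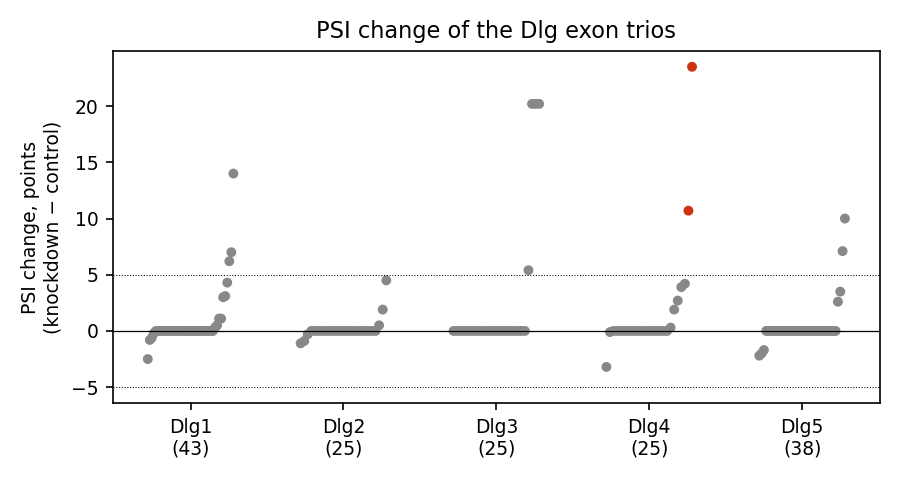
PSI change in points (vertical axis, knockdown minus control) of each kept trio in each Dlg gene, with the number of trios in brackets. Points are sorted by value within a gene, dotted lines mark 5 points in either direction, and red points have a 95% junction interval above 0, as did 2 trios of Dlg4 at 23.5 and 10.7.

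Exon 2 of Dlg4, which follows the first exon and encodes part of the N-terminal region, held the other trio with an interval above 0. It occurs as a 66-nt form (chr11:69840425-69840490) and as a 165-nt form (chr11:69840425-69840589) that uses a donor farther downstream. Both forms share the junction into the exon and the junction that skips it. The trio of the long form had a PSI of 69.6 with shControl and 80.3 with shptbp1, a change of 10.7 points. Its inclusion junctions held 121 and 27 reads and the skipping junction 33 with shControl, against 213, 41 and 30 with shptbp1. The upstream reads do not tell the forms apart, so this PSI is not the share of transcripts with the long form. Junction PSI was 69.2 (59.9 to 77.1) and 80.9 (74.0 to 86.3), and the interval of the difference was 1.23 to 22.5 points. At the donor before exon 2, the skipping junction took 36 of 269 and 32 of 419 reads, a difference of -5.75 points (-10.8 to -1.13). At the acceptor after exon 2, it took 36 of 290 and 32 of 349, a difference of -3.24 points (-8.26 to 1.56) that included 0. The long form's own junction took 27 and 41 of the reads at that acceptor, a difference of 2.44 points (-2.46 to 7.18). The trio of the short form had a PSI of 86.2 and 90.1, and the interval of its junction difference, -0.283 to 13.3 points, included 0. Use of the long donor against the short one, read as an alternative donor trio, was 16.6 and 19.3 in PSI. In that trio 26 and 41 reads lay on the splice junction of the long form and 77 and 99 on that of the short form. At its highest count over trios, however, the short form's junction held 227 and 276 reads, so this PSI overstates the long form's share. The trio of the short form also counted only 77 and 99 reads on that junction. Neither TCTT nor more than 1 CTCTCT was found in the 250 nt upstream of exon 2.

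In Dlg1, the 99-nt cassette exon at chr16:31771843-31771941 stayed largely skipped in both libraries. The exon is one of those that the study predicted to be repressed by PTBP1, and it preserves the reading frame. Its PSI was 10.8 with shControl and 13.9 with shptbp1, below the 5-point threshold. The inclusion junctions held 51 and 33 reads and the skipping junction 362 with shControl, against 43, 23 and 199 with shptbp1. Junction PSI was 10.4 (7.78 to 13.8) and 14.2 (10.3 to 19.3), and the interval of the difference was -1.33 to 9.54 points, which leaves out a rise as large as that of Dlg4 exon 18. The exon and the 100 nt upstream of it (chr16:31771743-31771842, plus strand) are given for comparison with Dlg4, with TCTT in capitals.
Dlg1 upstream: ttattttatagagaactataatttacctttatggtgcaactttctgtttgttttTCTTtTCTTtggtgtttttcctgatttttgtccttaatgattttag
Dlg1 exon: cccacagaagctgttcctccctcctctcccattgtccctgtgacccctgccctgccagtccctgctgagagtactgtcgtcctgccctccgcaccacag
The upstream stretch held 68% pyrimidines, a share at or above that of 96.2% of all windows, and TCTT occurred 6 times in the 250 nt upstream, a number that 2.94% of all windows reached.

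The other Dlg1 exons with moderate inclusion rested on fewer reads. The 97-nt cassette exon at chr16:31846923-31847019, in the linker between the SH3 and guanylate kinase-like domains, had a PSI of 35.9 and 49.9, but with 23, 16 and 35 junction reads with shControl and 14, 25 and 20 with shptbp1 the interval of the difference was -6.20 to 32.3 points. The 34-nt cassette exon next to it (chr16:31847722-31847755) had a PSI of 90.1 and 87.6 with 4 and 5 skipping reads. A 45-nt alternative donor extension at chr16:31797052-31797096 had a PSI of 75.3 and 82.3 with 111 and 52 reads on the junction of the short form, and the interval of its difference was -0.432 to 14.9. A 3-nt alternative acceptor at chr16:31846920-31846922 had a PSI of 67.3 and 73.5 from trios of 61 and 44 reads. By SpliceTrap trios, the changes in these 4 exons did not exceed counting error.

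Dlg3 and Dlg5 had the remaining trios that rose by 5 points or more. In Dlg3 the 54-nt exon at chrX:97966646-97966699 had a PSI of 52.1 and 72.3, which rested on 4 inclusion and 4 skipping reads with shControl and on 5 and 2 with shptbp1. The interval of its difference was -25.4 to 63.5 points. An intron retention trio of Dlg3 went from 0.1 to 5.5 in PSI with 1 inclusion read in all. In Dlg5 a 144-nt exon at chr14:25010370-25010513 had a PSI of 85.1 and 95.1 with 4 and 2 skipping reads, and a 15-nt alternative donor had a PSI of 7.4 and 14.5 with 7 and 8 reads on its boundary. The Dlg5 cassette exon of 69 nt at chr14:25021520-25021588 had a PSI of 99.9 and 98.2 with 0 and 1 skipping reads. No kept trio of Dlg2 changed by 5 points. Its lowest well-read exon, 156 nt long at chr7:99145676-99145831, had a PSI of 85.5 and 87.4.

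SpliceTrap lists a PSI of 0 for a few very short exons although their reads show inclusion. The trio of the 28-nt exon of Dlg4 at chr11:69855403-69855430 held 136 and 141 reads on the upstream junction and none on the downstream or the skipping junction, and is listed at 0 in both libraries, while other trios gave the downstream junction 140 and 174 reads. The only kept trio of the 42-nt exon of Dlg1 at chr16:31853929-31853970 is also listed at 0, with 154 and 70 reads on its upstream junction and none on its other junctions in that trio, while other trios gave the junction out of the exon 338 and 182 reads. These 2 trios are among 1011 of this kind in the series and carry no information on a change.

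The stretch of exons between the SH3 and guanylate kinase-like domains, called the hook region, varies among Dlg genes, and its junctions were compared after their values were seen. For each donor or acceptor with at least 20 reads with both shRNAs, the share of each competing junction was computed. In the Dlg genes 14 of 159 shares changed by 5 points or more with the 95% Newcombe interval on that side of 0, against 4.04% of 169611 shares over all genes. The 14 were 6 in Dlg4, 6 in Dlg1 and 2 in Dlg2, and several describe 1 event from both of its ends. Those of Dlg4 were the junctions of exons 18 and 2. A rise of 1 share is also a fall of its competitors at the same site, here and over all genes. The 14 are therefore not 14 separate events.

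In Dlg2, the donor at the end of the 76-nt exon chr7:99535425-99535500 joined either a 100-nt exon (chr7:99565734-99565833) or a 46-nt exon (chr7:99566598-99566643), and the 46-nt exon was used more after the knockdown. It took 16 of 50 reads from this donor with shControl (32.0%) and 50 of 71 with shptbp1 (70.4%), a difference of 38.4 points with an interval of 20.5 to 53.0. Downstream, it took 15 of 32 and 42 of 64 of the reads into the next shared exon, and the interval of that difference, -1.92 to 37.9 points, included 0. SpliceTrap trios compare inclusion with skipping, and both exons were listed with a PSI of at least 97.6, the 46-nt exon in a trio below the minimum of reads, so the trios did not show this choice.

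In Dlg1, a 36-nt exon of the same region (chr16:31854739-31854774) was also used more. It gave 74 of 414 reads into the 51-nt exon that follows with shControl (17.9%) and 83 of 270 with shptbp1 (30.7%), a difference of 12.9 points with an interval of 6.32 to 19.5. Direct joining from the 42-nt exon before it gave 338 and 182 reads. At the donor of that 42-nt exon, the 36-nt exon took 15 of 354 reads (4.24%) and 27 of 209 (12.9%). That difference was 8.68 points (3.99 to 14.2), so its use rose from both ends but at unlike levels. The 97-nt exon, with its 3-nt longer form, gave 43 of 333 and 43 of 219 reads into the 34-nt exon, a difference of 6.72 points (0.517 to 13.3). At the donor before it, the longer form took 38 of 352 and 31 of 221 reads, a difference of 3.23 points (-2.18 to 9.15), the 97-nt form took 23 and 14, and the share that skipped both differed by -2.75 points (-9.58 to 3.70), so the change was not seen from that end. In Dlg3, which was too sparsely read for shares, the donor of a 100-nt exon had 21 and 3 reads to the 42-nt exon at chrX:98006841-98006882, and reads into the 46-nt exon at chrX:98005201-98005246 were 0 and 4. Reads out of the 46-nt exon were 1 and 2 to the 42-nt exon and 1 and 0 to the exon after that, so its use could not be told apart between the libraries.

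**Figure D3:**
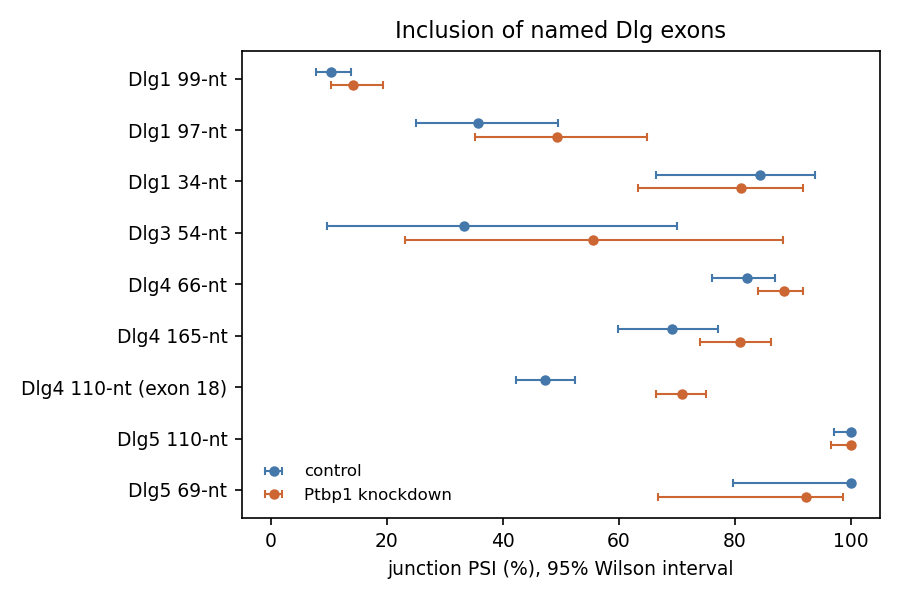
Junction PSI in percent (horizontal axis) with 95% Wilson intervals for the 9 named Dlg exons in the control and the knockdown library, ordered by gene and position. The intervals of the libraries are apart for Dlg4 exon 18 and overlap for the other 8 exons.

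The cassette exons elsewhere in the genome whose PSI was most like that of Dlg4 exon 18 were a 24-nt exon of Slc38a10, with 47.9 and 71.8, a 45-nt exon of Asph, with 49.9 and 71.8, and a 115-nt exon of Necap2, with 50.2 and 73.5. They were the closest among 5654 exons with at least 100 reads in each library, at distances of 0.894, 1.26 and 1.98 PSI points over the 2 libraries. For the Dlg1 99-nt exon, the closest were exons of Tgfb2, with 11.3 and 13.9, Cnot2, with 10.5 and 13.5, and Lrrc40, with 11.4 and 14.

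Transcript levels moved unequally across the family, with Dlg4 and Dlg2 higher with shptbp1 and Dlg1 slightly lower by isoform bases and by junction reads, although the authors' gene FPKM gave log2 ratios of -0.045 for Dlg4 and 0.098 for Dlg2. The values of Dlg3 and Dlg5 differed between measures. In a bulk sample, fewer cells of a type and less RNA per cell cannot be told apart. Levels were first taken from RefSeq isoforms, in ppm of the library's isoform bases. Dlg4 was at 45.3 with shControl and 86.5 with shptbp1, a log2 ratio of 0.93. Dlg1 was at 89.9 and 82.9, a log2 ratio of -0.12. Dlg5 was at 23.3 and 23.8, a log2 ratio of 0.03. Dlg3 was at 0.330 and 1.14, a log2 ratio of 1.78, and the RefSeq isoform of Dlg2 is listed at 0 in both libraries. By this measure Dlg3 and Dlg4 were 1.5-fold higher or more and none was as much lower, while 23.3% of 11608 genes were higher and 13.1% lower by as much, around a median log2 ratio of 0.08.

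The authors assembled transcripts separately in each library, so reads of a gene can sit on RefSeq isoforms in 1 library and on assembled ones in the other. Assembled isoforms held all bases of Dlg2 in both libraries, 91.2% and 70.8% of those of Dlg3, and 29.1% and 0% of those of Dlg4. Over all isoforms of the locus, Dlg4 was at 63.9 and 86.5 ppm, a log2 ratio of 0.44. Dlg2 was at 22.8 and 38.5, a log2 ratio of 0.76, and Dlg3 was at 3.76 and 3.91, a log2 ratio of 0.06. The log2 ratio was -0.22 for Dlg1 and 0.13 for Dlg5.

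Reads on the splice junctions of each gene do not depend on assembly. Dlg4 had 6956 junction reads with shControl and 8584 with shptbp1, a 1.57-fold higher share of the library's junction reads (95% interval 1.53 to 1.63). Dlg2 had 1338 and 1812, a 1.73-fold higher share (1.61 to 1.85). Dlg5 had 2189 and 2135, a 1.24-fold higher share (1.17 to 1.32), and Dlg3 had 303 and 246, a ratio of 1.04 (0.876 to 1.23). Dlg1 had 12098 and 8192, a ratio of 0.864 (0.840 to 0.889). Dlg2 and Dlg4 were thus 1.5-fold higher or more, as were 19.1% of 11050 genes, and none was 1.5-fold lower, as were 1.46%, around a median log2 ratio of 0.18 over all of them. A read that crosses several junctions is counted on each, so these intervals are somewhat too narrow.

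**Figure D4:**
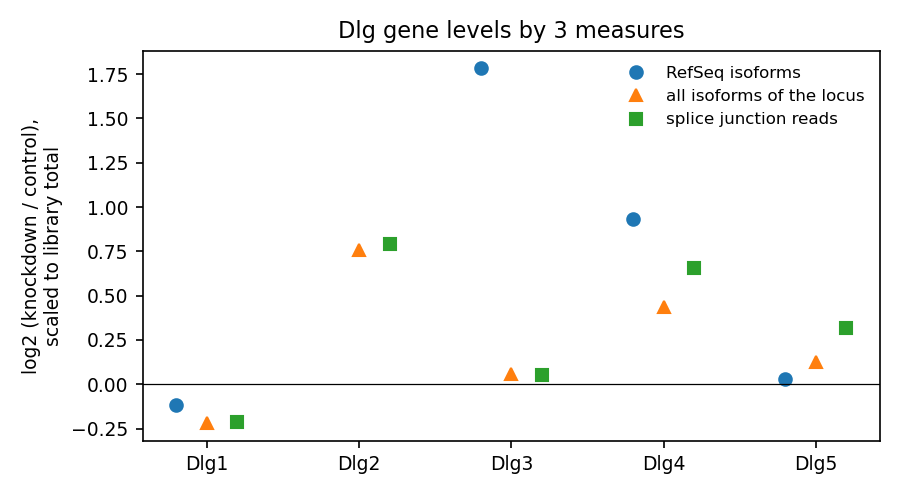
Log2 ratio of knockdown over control (vertical axis), scaled to the library total, for each Dlg gene by RefSeq isoforms, by all isoforms of the locus and by splice junction reads. Dlg2 has no RefSeq point because its RefSeq isoform is listed at 0 in both libraries, and the RefSeq value of Dlg3 (1.78) stands far from its other values (0.06 and 0.05).

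The rise of Dlg4 was seen along the whole transcript. Of its 23 junctions with a mean of at least 20 reads, 22 had a higher share of junction reads with shptbp1, with a median log2 ratio of 0.66. The exception was the junction that skips exon 18, with a log2 ratio of -0.32, while the junctions into and out of exon 18 had 1.19 and 1.03. These counts are the highest over the trios that hold a junction, 130 and 233 reads into the exon and 246 and 395 out of it. Dlg2 rose on 20 of 21 junctions and Dlg1 on 7 of 33.

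**Figure D5:**
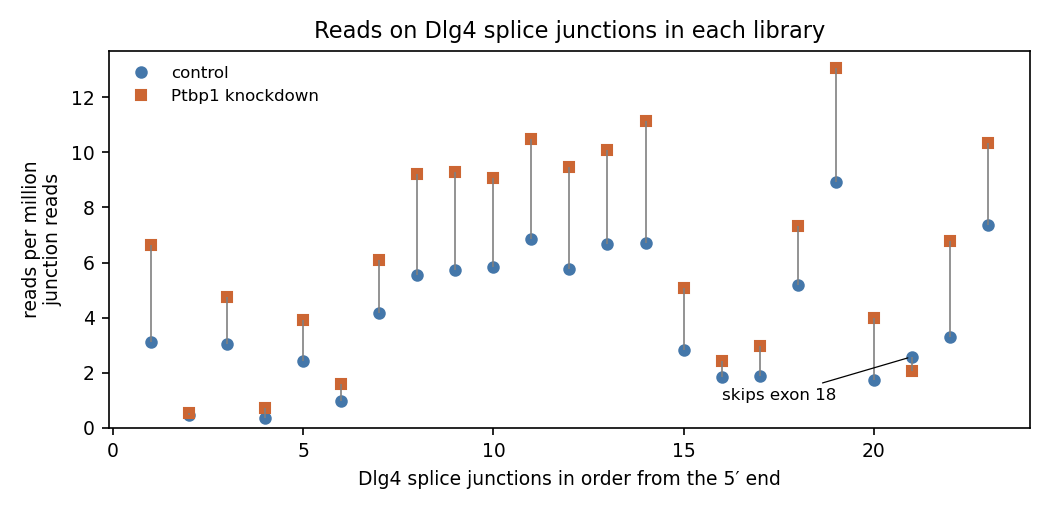
Reads in ppm of the library's junction reads (vertical axis) on each of 23 Dlg4 splice junctions in order from the 5′ end (horizontal axis), with shControl (circles) and the knockdown library (squares). All but the junction that skips exon 18 are higher with shptbp1, and that one is at 2.58 with shControl and 2.06 with shptbp1.

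Levels between the genes were compared per junction, as the median ppm of the library's junction reads over junctions with a mean of at least 20 reads. With shControl the order was Dlg1 at 4.91, Dlg4 at 3.31, Dlg5 at 0.887, Dlg2 at 0.793 and Dlg3 at 0.296. With shptbp1 it was Dlg4 at 6.64, Dlg1 at 3.93, Dlg2 at 1.58, Dlg5 at 1.12 and Dlg3 at 0.360. By these medians Dlg4 and Dlg1 changed places, as did Dlg2 and Dlg5. Dlg3 had only 4 such junctions, so the minimum largely sets its value. The Dlg4 medians fell on different junctions, out of exon 18 with shControl and into exon 2 with shptbp1. As means over all listed junctions, Dlg1 was at 2.32 and 2.01 and Dlg4 at 2.34 and 3.68. Dlg2 was at 0.305 and 0.527 and Dlg5 at 0.446 and 0.555, so neither pair changed places by means. Without replicates the spread that would bear on these orders is unknown.

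The genes that work with Dlg proteins were described by lists, first from RefSeq isoforms and then from junction reads. Over all genes, 23.3% were 1.5-fold higher and 13.1% lower by RefSeq isoforms, and 19.1% and 1.46% by junction reads. Of the 32 PSD-95 ligands and receptors, 12 passed the minimum of 20 reads by RefSeq isoforms, 9 of them were 1.5-fold higher or more and none as much lower, with a median log2 ratio of 1.13. By junction reads 8 of 12 were higher, with a median of 0.68, against 0.18 over all genes. Gria2, an AMPA receptor subunit, had 506 and 1147 junction reads and log2 ratios of 2.91 by RefSeq isoforms and 1.53 by junction reads. Grin2d, an NMDA receptor subunit, was listed at 0 with shControl by RefSeq isoforms, so that it passed the minimum only through the knockdown library, and had 38 and 54 junction reads. The lowest by RefSeq isoforms were Lgi1, a secreted synaptic ligand, at -0.27, and Cacng4, an AMPA receptor auxiliary subunit, at -0.10, with junction log2 ratios of 0.20 and 0.64. Of the list, 12 genes were at 0 in both libraries.

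Among 21 other membrane-associated guanylate kinases, 14 passed by RefSeq isoforms, 3 were higher and 5 lower by 1.5-fold, and by junction reads 4 of 15 were higher and 1 lower, which for the higher genes is near the shares over all genes. Mpp5, a partner of the Crumbs polarity complex, had a log2 ratio of 1.35 by RefSeq isoforms and 0.32 by junction reads, and Card10, a signalling scaffold, 0.68 and 1.32. Mpp7 and Magi2 were listed at 0 with shptbp1 by RefSeq isoforms, so that they passed the minimum only through the control library, and Mpp7 had 626 and 555 junction reads. Among 20 postsynaptic scaffolds, 3 of 13 were higher and none lower by RefSeq isoforms, a share of higher genes like that over all genes, and 5 of 15 were higher by junction reads. Of the 3, Kalrn and Homer2 passed the minimum only through the knockdown library, where they are high, so the count by RefSeq isoforms carries no weight. Kalrn, a regulator of dendritic spines, was listed at 0 with shControl but had 2127 and 1425 junction reads, a log2 ratio of -0.23. Homer2, a scaffold that links metabotropic glutamate receptors, had 5.35 and 35.3 reads of 100 bases and 3 and 5 junction reads. Dlgap5, a mitotic relative of the PSD-95 binding SAPAP proteins, and Dynll1, a dynein light chain, were at -0.25 and -0.18 by RefSeq isoforms.

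Among 19 polarity partners, 2 of 13 were higher and 4 lower by RefSeq isoforms, while by junction reads 3 of 15 were higher and none lower, near the share over all genes. Apc and Scrib, which bind or act with Discs-large in epithelial polarity, had log2 ratios of -3.59 and -2.80 by RefSeq isoforms but -0.04 and 0.30 by junction reads. Vangl2, a planar polarity membrane protein, had 1.05 and 0.07, and Llgl2, a Lethal giant larvae homolog, 0.76 and 0.77. Of 8 enzymes that add or remove palmitate on PSD-95, 2 were higher and 1 lower by RefSeq isoforms, near the shares over all genes, and none of the 5 with enough junction reads changed 1.5-fold. The palmitoyltransferases Zdhhc2, Zdhhc3 and Zdhhc7 had log2 ratios of 1.79, 0.81 and -1.62 by RefSeq isoforms against 0.49, 0.07 and 0.19 by junction reads, and Abhd17b, a depalmitoylating enzyme, had -0.25 by RefSeq isoforms. Of 5 mature synapse markers, 3 were higher by either measure, among them Grin1, the obligate NMDA receptor subunit, which is also in the list of ligands and receptors, with junction log2 ratio 0.91, and Snap25, a vesicle fusion protein, with 0.99, while Syp and Syn1, both vesicle proteins, had -0.04 and 0.27.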

How the data were processed

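The authors aligned strand-specific paired reads of both N2A libraries and deposited SpliceTrap and Cufflinks output on mm9. Per the labels, the processing notes name CASAVA, TopHat and Cufflinks, with versions not given in the sources used here. SpliceTrap's deposited inclusion ratios are fractions, before and after its correction, its junction columns are counts of reads, and its coverage signal is in reads per 100 nt. The Cufflinks files hold deposited FPKM, whose sums are far above the usual scale, and read depth per base (coverage) for RefSeq and assembled isoforms.

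PSI was the corrected fraction as a percent. Junction PSI divided the mean reads of the 2 inclusion junctions by that mean plus the skipping reads, with 95% Wilson and Newcombe intervals. Alternative donor and acceptor trios have 1 boundary that is not a splice junction. Trios needed 20 reads in each library, and exons with several trios took the most-read one of their class. Isoform bases were depth times length over the library total, with 0.5 reads added for ratios. RefSeq accessions, 95.9% of them matched in each library, were named from a GRCm38.p6 table used for names only. Calls used 5 PSI points or 1.5-fold. Named exons were Dlg4 exon 18, the Dlg1 99-nt exon, exons called with an interval beyond 0, and cassette-class exons. Other Dlg exons with values, outside that rule, were chosen after their values were seen. From each gene list the 2 highest and 2 lowest by RefSeq isoforms were named, with junction reads beside them. Members and lists were chosen with earlier results of these data known. Junction totals per gene, which count each distinct junction at its highest value over trios, and the shares of competing junctions, were added after seeing the data. Sequences came from NCBIM37, on which 99.7% of kept exons were preceded by AG. The intervals were run on counts simulated under the binomial model that they themselves assume, which does not test that model for these data. Python 3.11.15 with NumPy 2.4.6, pandas 2.3.3, SciPy 1.17.1 and pysam 0.24.0 was used.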

Additional observations from a re-analysis of the deposited data

How the results depend on the processing

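No paired analysis was possible because each condition has 1 library, and for the same reason no replicate could be left out. The change in PSI of Dlg4 exon 18 lay between 21.1 and 23.8 points under the ratio before correction, junction PSI, the larger inclusion junction and the mean over all trios, and that of the Dlg1 99-nt exon between 1.55 and 5.42. The 7 other named exons moved by less than their counting intervals. The count of 11 Dlg trios that changed by 5 points or more became 6 when 50 reads were required, 7 at a threshold of 10 points, and 7 when 20 junction reads were required, a setting chosen after seeing the data. No trio fell by 5 points in the report's setting, but 2 did with the ratio before correction, with junction PSI, and with a minimum of 10 reads or none. The count of 2 trios with an interval above 0 became 0 without Dlg4, also chosen after seeing the data, and stayed at 2 under the other 6 settings.

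Gene levels depended on which transcripts were summed. The log2 ratio of Dlg1 was -0.12 from RefSeq isoforms, -0.22 over all isoforms of the locus and with scaling to the median gene, -0.29 from RefSeq FPKM with a pseudocount of 1 or 0.1, -0.41 from gene FPKM and -0.21 from junction reads. Dlg2, given over all isoforms of its locus as 0.76, was 0.10 from gene FPKM. Dlg3 went from 1.78 to 0.056 over all isoforms, 1.06 from RefSeq FPKM, 0.043 from gene FPKM and 0.051 from junction reads. Dlg4 went from 0.93 to 0.44 over all isoforms, 0.83 with median scaling, 0.74 from RefSeq FPKM, 0.65 from junction reads and 0.65 from junction reads without those of exon 18, and it reversed to -0.045 from gene FPKM, which sums 5 isoforms in the control library, 3 of them assembled and shorter, and 2 in the knockdown library. Dlg5 went from 0.03 to 0.13, -0.071, -0.16, -0.45 and 0.32 over all isoforms, with median scaling, from RefSeq FPKM, from gene FPKM and from junction reads. Ptbp1 went from -1.73 to -1.61, -1.83, -1.83, -1.61 and -1.58 in the same order. The count of 29 of 60 scaffold and partner genes changed 1.5-fold or more, 19 higher and 10 lower, became 16 over all isoforms, 15 higher and 1 lower, 19 at 2-fold, and 21 from junction reads, 20 higher and 1 lower. Scaling to the median gene gave 15 higher and 10 lower. Over all genes, 23.3% were 1.5-fold higher and 13.1% lower by RefSeq isoforms, and 19.1% and 1.46% by junction reads. No share over all genes is given for the other settings, so their counts stand without one. The 29 include Kalrn, Homer2, Grin2d, Mpp7 and Magi2, which passed the minimum only through the library where they are high. The causes of the shifts between settings were not tested.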
